A study of Homo sapiens with 6 samples.

Results

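The clustered histone genes encode the linker histone H1 and the core histones H2A, H2B, H3 and H4, and lie in the HIST1 cluster on human chromosome 6 and in the smaller HIST2, HIST3 and HIST4 groups. They were taken as all rows of the expression table whose symbol starts with HIST1H, HIST2H, HIST3H or HIST4H, which gave 69 of 17468 genes. By type these were 6 H1, 16 H2A, 18 H2B, 14 H3 and 15 H4 genes, and by cluster 54, 11, 3 and 1. Expression was measured by RNA sequencing in A375 and Colo800, 2 human melanoma cell lines, each infected with a virus for a scrambled hairpin or for 1 of 2 short hairpin RNAs against ETV1, an ETS-family transcription factor. The hairpins are named Scrambled, ETV1-sh1 and ETV1-sh2, and the question was which transcripts differ once ETV1 is lowered. The design text describes duplicate infections and RNA harvest 4 days later, but the table holds 1 library per line and hairpin, and no source used here says whether it pools duplicates. The labels also attach an agent to each hairpin in both lines, DMSO to ETV1-sh1, the MEK inhibitor trametinib at 5 nM to ETV1-sh2 and the BRAF inhibitor vemurafenib at 1 uM to Scrambled, and their protocol speaks of siRNA for 48 hours and drug for 8 hours. Hairpin and agent cannot be told apart in these 6 libraries.

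Replication-dependent histone genes are transcribed mainly in S phase, when new chromatin needs histones. Most of their mRNAs have no intron and no poly(A) tail. They end just after a short RNA stem-loop that is bound by SLBP and cut by a complex holding the U7 small nuclear ribonucleoprotein. Some of these genes are known also to make longer, polyadenylated mRNAs in cells that leave the cycle. No source used here says whether poly(A) RNA was selected, so a low value of a clustered histone gene cannot be read as low total histone mRNA.

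The 3′ end that separates these 2 kinds of transcript can be read from the annotated sequences where they reach it. The stretches around the stem-loop are shown for the 3 genes that rose with ETV1-sh2 and have one in the annotation. HIST1H2BC, the divergent neighbour of HIST1H2AC, is added. The stretches come from GENCODE release 29 transcripts, with the stem-loop in capitals and 5 bases on each side.
HIST1H2BD: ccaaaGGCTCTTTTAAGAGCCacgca
HIST1H2AC: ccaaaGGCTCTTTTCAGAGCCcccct
HIST2H2BE: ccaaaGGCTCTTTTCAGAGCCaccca
HIST1H2BC: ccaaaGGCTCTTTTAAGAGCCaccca
The histone stem-loop was searched on the transcript strand as an inverted repeat of 6 bases around a loop of 4 with at most 1 mismatch. The match also had to open with GG, close with CC, and hold T just before the loop and TT at the loop's start. Of 83129 protein-coding transcripts, 0.798% held a match. The matching HIST1H2BD transcript has 1 exon and 496 bases and ends 39 bases after the stem-loop. A second HIST1H2BD transcript of 2 exons and 789 bases does not hold it. In HIST1H2AC the annotation runs on for up to 1128 bases past the stem-loop, in HIST2H2BE for 1729 and in HIST1H2BC for 116. Long runs are not particular to the genes that rose. Among tested genes that were not called, HIST1H2BH has 1640 bases past it, HIST2H2BF 1479, HIST1H2BG 1059 and HIST1H4E 1022. HIST1H2AE has 51 and HIST1H2AI 39. HIST1H2BJ, which also rose, has 3 annotated transcripts of up to 950 bases and none with the stem-loop. Its only 1-exon transcript has 381 bases, the length of the HIST1H2BK model, which holds coding sequence only. The others have 2 exons. These models thus cannot show whether the gene has a stem-loop.

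Promoter windows are shown for the 4 genes that rose with ETV1-sh2. The windows are from RefSeq (GRCh38.p14), 250 bases before to 50 after the start, in the direction of the gene. Capitals mark the octamer ATTTGCAT, CCAAT and TATAAA on either strand, which are bound by OCT1, NF-Y and the TATA-binding protein. Marked motifs overlap only in the HIST1H2BJ window, where TATAAA shares bases with its reverse complement.
HIST1H2AC, chr6:26123922-26124221, plus strand: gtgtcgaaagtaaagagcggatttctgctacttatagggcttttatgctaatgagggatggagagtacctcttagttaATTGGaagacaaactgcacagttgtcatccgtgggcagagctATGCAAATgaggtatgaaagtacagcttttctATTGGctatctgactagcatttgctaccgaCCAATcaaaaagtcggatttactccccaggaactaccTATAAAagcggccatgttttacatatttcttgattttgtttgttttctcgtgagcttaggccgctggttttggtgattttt
HIST1H2BD, chr6:26157871-26158170, plus strand: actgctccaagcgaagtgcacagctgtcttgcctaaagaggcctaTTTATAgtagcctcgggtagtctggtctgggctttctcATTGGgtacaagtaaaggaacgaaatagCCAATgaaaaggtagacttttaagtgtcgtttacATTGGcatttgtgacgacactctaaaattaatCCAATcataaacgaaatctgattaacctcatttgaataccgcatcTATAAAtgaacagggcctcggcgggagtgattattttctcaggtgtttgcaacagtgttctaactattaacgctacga
HIST2H2BE, chr1:149886633-149886932, minus strand: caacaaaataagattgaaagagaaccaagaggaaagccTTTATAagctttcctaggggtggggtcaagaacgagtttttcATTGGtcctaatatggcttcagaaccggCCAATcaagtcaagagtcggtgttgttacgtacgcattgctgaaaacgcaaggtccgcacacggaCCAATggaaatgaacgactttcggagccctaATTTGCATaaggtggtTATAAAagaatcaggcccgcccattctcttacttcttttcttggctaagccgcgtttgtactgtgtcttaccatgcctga
HIST1H2BJ, chr6:27132746-27133045, minus strand: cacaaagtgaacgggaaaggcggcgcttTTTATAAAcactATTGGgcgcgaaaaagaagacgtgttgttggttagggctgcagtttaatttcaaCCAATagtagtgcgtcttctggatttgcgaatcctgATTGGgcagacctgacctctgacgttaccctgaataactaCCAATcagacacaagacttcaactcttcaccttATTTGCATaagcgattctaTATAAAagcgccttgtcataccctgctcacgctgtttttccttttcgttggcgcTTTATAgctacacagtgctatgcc
A RefSeq window was found for 60 of the 69 genes, including all 21 tested below. Counts are by gene, and a gene with more than 1 window counts if any holds the motif. The octamer lay in 25 of the 60, against 1.77% of 35116 RefSeq promoters. It was found for 24 of 31 H2A and H2B genes and for 1 of 29 H1, H3 and H4 genes. That 1 gene is HIST1H3D, through a window that is also the window of HIST1H2AD. The exact octamer is not in the HIST1H2BD window. CCAAT was found for 50 of the 60 genes (34.6% of all promoters) and TATAAA for 40 (11.5%). The ETS core CCGGAAG, the kind of site ETV1 can bind, was found for 5 of the 60 genes (10.3% of all promoters) and for 2 of the 21 tested. In 10 pairs the windows overlap head to head, each joining an H2A with an H2B gene, and HIST1H2AC shares 255 of its 300 bases with HIST1H2BC.

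Values are FPKM, which counts fragments relative to transcript length and library size, so levels can be compared between genes per length as far as the authors' gene models allow. The FPKM sums were 589256 to 710498 per library, and the low values placed the relative depth of the other libraries at 0.768 to 2.10 times that of A375 Scrambled, with absolute depth unknown. ETV1 itself stood at 82.8, 34.6 and 3.46 FPKM for Scrambled, ETV1-sh1 and ETV1-sh2 of A375, and at 180, 54.6 and 9.80 in Colo800. Of 7 melanocyte markers measured, 3 were at 1 FPKM or more in all 6 libraries. Among them SOX10, a melanocyte lineage factor, was at 353 to 712 FPKM. The pigment enzymes DCT and TYR were under 0.1 FPKM in A375 and MLANA was at 0.301 to 1.85 FPKM in both lines, so A375 carried the lineage factor with these pigment genes at or near 0. Of the other marker lists, 5 of 6 leukocyte, 4 of 6 keratinocyte or epithelial and 2 of 4 endothelial genes were under 1 FPKM in every library.

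Most clustered histone genes were near the floor. Of the 69, 10 were listed at 0 in every library, 59 had a value above 0 in at least 1 library and 38 had one in all 6. A mean of at least 1 FPKM over the 6 libraries, the filter for testing, was reached by 21 genes: 2 H1, 6 H2A, 8 H2B, 3 H3 and 2 H4. The other 48 were not tested, and 41 of the 69 were under 1 FPKM in every library. HIST1H2AI at a mean of 1.45 and HIST1H1E at 1.29 FPKM were the lowest H2A and H1 genes tested, while HIST3H2BB at 0.904 and HIST2H2AC at 0.893 fell just short. The highest single value among the untested was 1.71 FPKM, for HIST1H1D in the A375 ETV1-sh2 library. Of those listed at 0, HIST2H2AA3, HIST2H2AA4, HIST2H3A, HIST2H3C and HIST2H4B belong to a duplicated stretch of near-identical genes whose reads the counting could have lost or split.

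H2A and H2B genes held most of the signal. Summed over all 69 genes, FPKM was 391, 350 and 572 for Scrambled, ETV1-sh1 and ETV1-sh2 of A375, and 133, 170 and 302 in Colo800. In both lines the ETV1-sh2 library had the highest sum, and the highest Colo800 sum was below the lowest A375 one. H2B genes made up 47.8% to 55.3% of the sum. The 8 highest genes of each library, which were not the same 8 in every library, held 70.0% to 85.9% of that library's sum. A mean of at least 10 FPKM over the 6 libraries was reached by 8 genes. They were HIST1H2AC (mean 54.1 FPKM), HIST1H2BK (51.2), HIST1H2BD (46.1), HIST1H1C (36.5), HIST2H2BE (23.6), HIST3H2A (18.9), HIST1H2BG (15.8) and HIST1H4H (12.3).

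**Figure D1:**
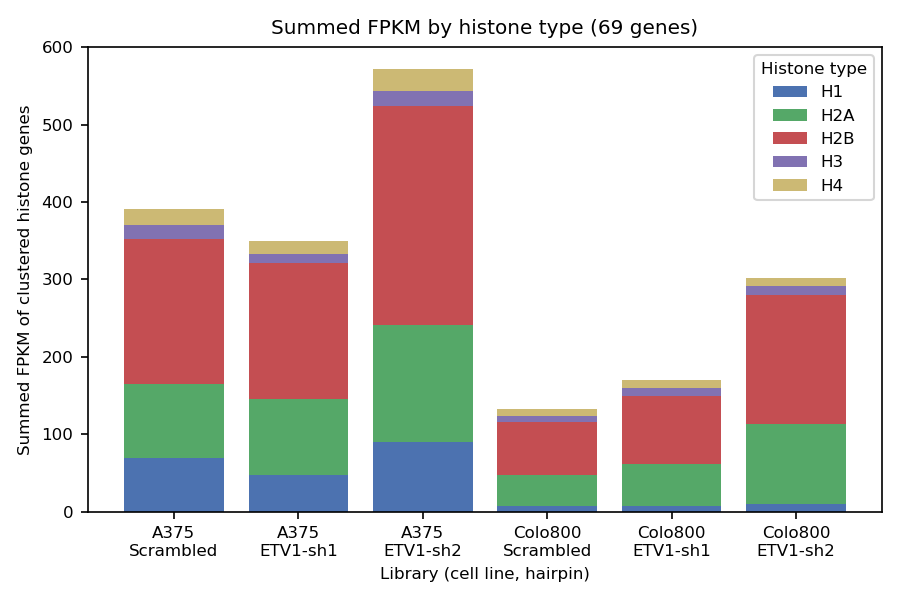
Bars give the summed FPKM of the 69 clustered histone genes in each of the 6 libraries, stacked by histone type. H2B (red) and H2A (green) fill most of each bar, and the sums run from 133 in Colo800 Scrambled to 572 in A375 ETV1-sh2.

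The H3 and H4 genes, whose proteins form the core of the nucleosome as a tetramer, were low by comparison. The highest H3 genes were HIST1H3D at a mean of 4.84 FPKM, HIST1H3E at 4.07 and HIST1H3H at 3.20, followed by HIST1H3B at 0.255. Among H4 genes HIST1H4E followed HIST1H4H at a mean of 1.82 FPKM, and HIST1H4D and HIST1H4I were at 0.55 and 0.398. The linker histone gene HIST1H1T, known from the testis, was at a mean of 0.157 FPKM. A list of 8 clustered genes known to make polyadenylated mRNA was drawn up from background knowledge, with earlier results of these data known. Its genes are HIST1H1C, HIST1H2AC, HIST1H2BC, HIST1H2BD, HIST1H2BJ, HIST1H2BK, HIST2H2BE and HIST1H4H. They held 64.0% to 82.5% of the summed FPKM. In the annotation, 13 of the 21 tested genes and 17 of the 48 untested had a transcript with the stem-loop, and 10 of 21 and 11 of 48 had one that ran at least 100 bases past it. The models of 5 tested and 28 untested genes hold coding sequence only and cannot show either. Among genes with annotated sequence beyond the coding part at either end, 13 of 16 tested and 17 of 20 untested had the stem-loop. Of these same genes, 10 of 16 and 11 of 20 ran at least 100 bases past it. Those without a match, HIST1H2BJ among them, need not lack the stem-loop, since their models may not reach it.

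**Figure D2:**
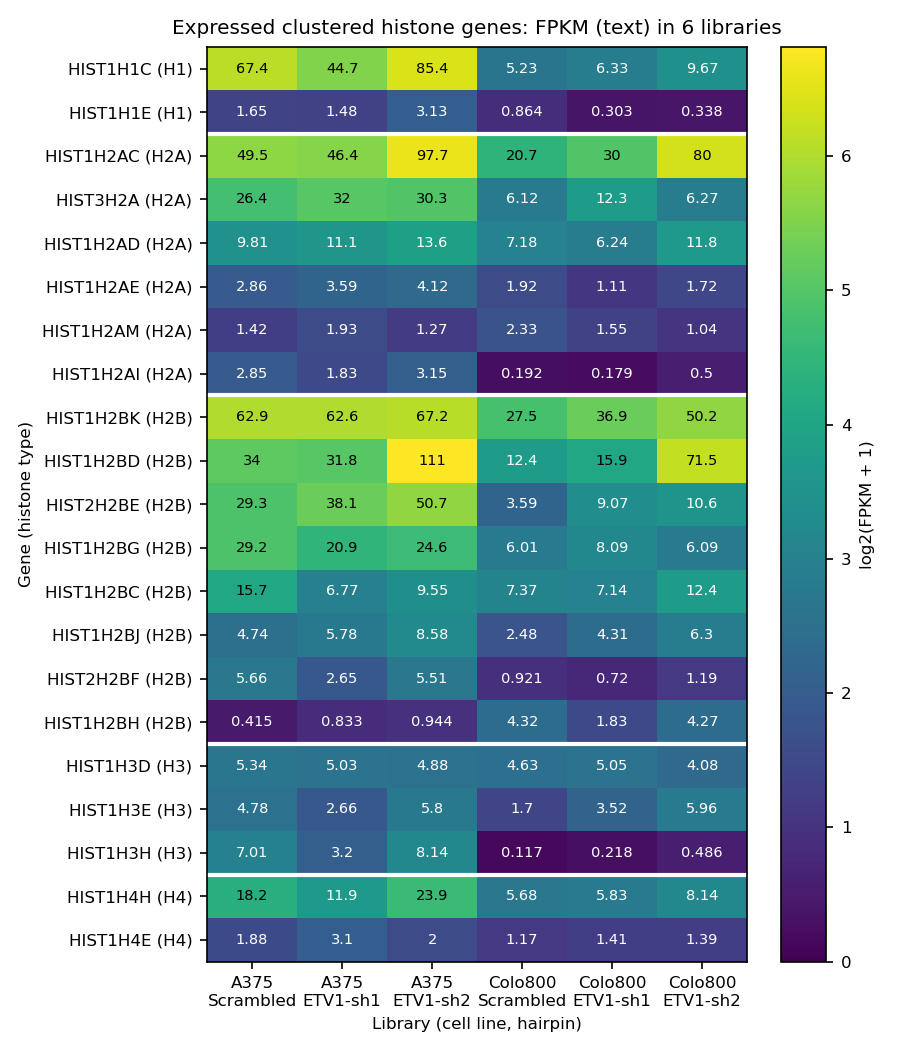
Each cell gives the FPKM of 1 of the 21 tested genes (rows, grouped by histone type) in 1 of 6 libraries (columns), coloured by log2(FPKM + 1). Bright cells lie in few rows, and most rows are darker in the 3 Colo800 columns, as for HIST1H1C with 67.4 FPKM in A375 Scrambled and 5.23 in Colo800 Scrambled.

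Some of these values are uncertain because the genes share sequence. The share of a gene's annotated 50-base stretches that also occur in a transcript of another gene was 100% for HIST1H3D, 98.0% for HIST1H2AD, 86.3% for HIST1H2AM, 74.1% for HIST1H2BK and 62.3% for HIST1H2AI. It was 5.36% for HIST1H2BD, 0.421% for HIST1H2AC, 8.11% for HIST2H2BE and 4.65% for HIST1H2BJ.

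With ETV1-sh2, the hairpin that left less ETV1, 1 H2A and 3 H2B genes rose against Scrambled and none of the 21 tested fell. HIST1H2BD, an H2B gene, stood at 34.0, 31.8 and 111 FPKM for Scrambled, ETV1-sh1 and ETV1-sh2 of A375, and at 12.4, 15.9 and 71.5 in Colo800. Only the ETV1-sh2 libraries were high, at 3.28 times the Scrambled value in A375 and 5.77 times in Colo800. HIST1H2AC, an H2A gene, stood at 49.5, 46.4 and 97.7 FPKM in A375 and at 20.7, 30.0 and 80.0 in Colo800, again with the ETV1-sh2 library of each line on top. HIST2H2BE stood at 29.3, 38.1 and 50.7 FPKM in A375 and at 3.59, 9.07 and 10.6 in Colo800. HIST1H2BJ stood at 4.74, 5.78 and 8.58 FPKM in A375 and at 2.48, 4.31 and 6.30 in Colo800. For these last 2 H2B genes the ETV1-sh1 library lay between the other two in both lines.

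In a fit of line plus hairpin (3 levels), limma gave HIST1H2BD a change of 2.06 on the log2(FPKM + 1) scale (SE 0.217, Benjamini-Hochberg adjusted p = 0.00816 in limma). The change was 1.43 for HIST1H2AC (SE 0.244, limma adjusted p = 0.0188), 1.06 for HIST2H2BE (SE 0.229, limma adjusted p = 0.0305) and 0.90 for HIST1H2BJ (SE 0.209, limma adjusted p = 0.0359). Over all 11129 genes tested, 7.73% were called higher and 9% lower with ETV1-sh2, so 4 of 21 higher and 0 lower stand beside those shares. The median change of the 21 genes was 0.22, with 18 above 0, and that of all tested genes 0.046, with 53.4% above 0. At an unadjusted limma p under 0.05, 6 of the 21 were higher and 0 lower, beside 2065 higher and 1900 lower of all 11129. In RNA from whole cultures, a change in the number of cells of one kind cannot be told apart from a change of RNA per cell. The call of 4 genes rests on few libraries: 2 genes were called without A375 Scrambled or without Colo800 ETV1-sh2, 3 without A375 ETV1-sh2, and 1 without A375 ETV1-sh1, Colo800 Scrambled or Colo800 ETV1-sh1, with HIST1H2BD called each time. None was called when the 16132 genes with any value above 0 were all tested, where limma gave HIST1H2BD an adjusted p of 0.0638 and called no gene at all.

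**Figure D3:**
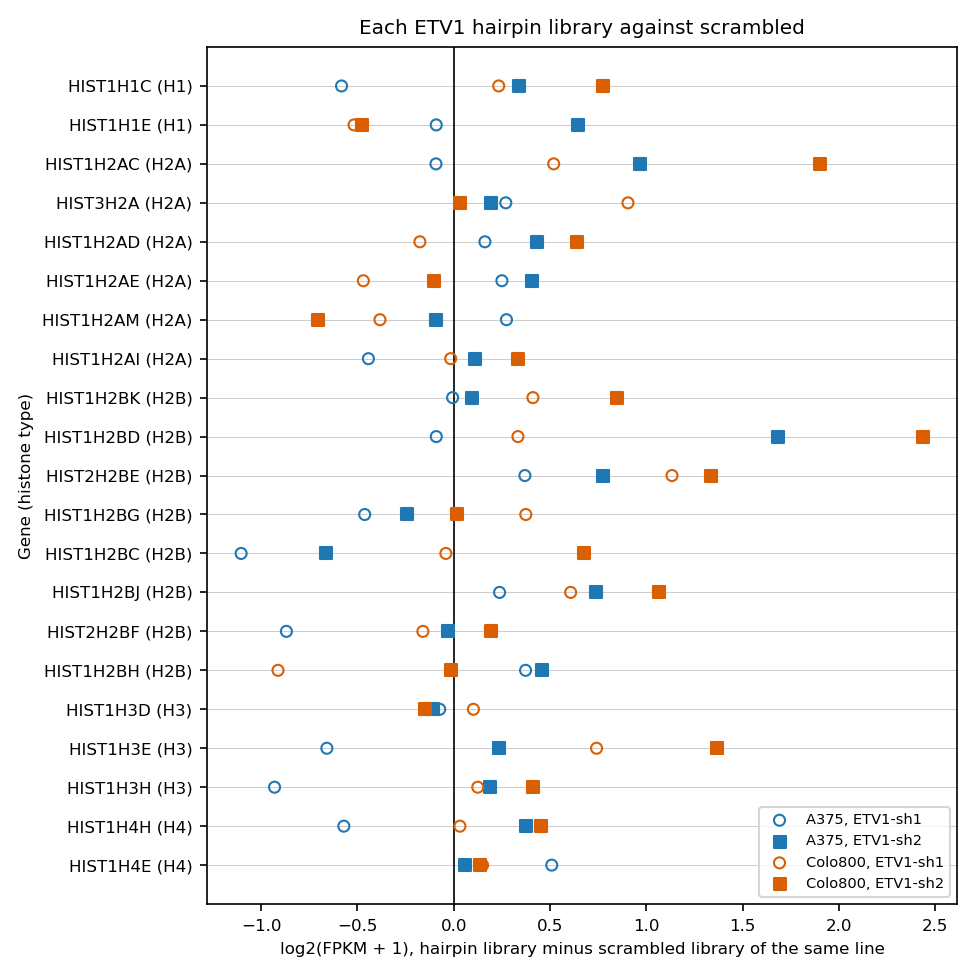
Points give log2(FPKM + 1) of a hairpin library minus that of the Scrambled library of its line, for the 21 tested genes; circles are ETV1-sh1, squares ETV1-sh2, blue A375 and orange Colo800. The Colo800 square of HIST1H2BD lies farthest right, both squares of the 4 genes that rose lie right of 0, and the squares of HIST1H2BC lie on opposite sides.

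All 4 genes that rose are on the list of 8 that are known to make polyadenylated mRNA. That list had a median change of 0.73 and all 8 changes were above 0, while the 13 other tested genes had a median of 0.11, 10 changes above 0 and no call (1 at an unadjusted limma p under 0.05). Since the list was written with earlier results of these data known, its counts are a description. The other 4 of the 8 were not called. HIST1H1C, the most abundant of the clustered linker histone genes, had a change of 0.56 (SE 0.23, limma adjusted p = 0.14), HIST1H2BK 0.47 (limma adjusted p = 0.171) and HIST1H4H 0.41 (limma adjusted p = 0.225). HIST1H2BC was at 15.7, 6.77 and 9.55 FPKM in A375 and at 7.37, 7.14 and 12.4 in Colo800, and its fitted change was 0.0076 (SE 0.333, limma adjusted p = 0.989). The ETV1-sh2 value of HIST1H2BC was thus below Scrambled in A375 and above it in Colo800. It shares its promoter stretch with HIST1H2AC, and the difference between the 2 genes was not tested. Outside that list, HIST1H3E had the largest value at 0.80 (SE 0.357, limma adjusted p = 0.165). Below 0 were HIST1H2AM at -0.40, HIST1H3D at -0.13 and HIST1H2BG at -0.11, none past the threshold.

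The 2 ETV1 hairpins differed from each other for HIST1H2BD and HIST1H2AC. Against ETV1-sh1, ETV1-sh2 was higher for HIST1H2BD by 1.94 (SE 0.217, limma adjusted p = 0.00784) and for HIST1H2AC by 1.22 (SE 0.244, limma adjusted p = 0.0271). That made 2 of 21 higher and 0 lower, beside 6.82% higher and 6.91% lower among all tested genes. At an unadjusted limma p under 0.05, 5 of the 21 were higher, beside 1960 of all 11129 tested genes. This comparison uses the same ETV1-sh2 libraries as the one with Scrambled and is not independent of it. No gene was called without A375 ETV1-sh1 or without Colo800 ETV1-sh1, nor with all 16132 genes tested. HIST3H2A and HIST1H2AM had the lowest p among the changes below 0, at -0.47 and -0.35.

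With ETV1-sh1 alone no clustered histone gene was called against Scrambled (limma), where 0.773% of all tested genes were higher and 1.51% lower. An unadjusted limma p under 0.05 was reached by 2 of the 21 and by 2095 of all 11129 tested genes. HIST2H2BE had the smallest p, with a change of 0.75 (SE 0.229, limma adjusted p = 0.159), followed by HIST3H2A at 0.59 (SE 0.238, limma adjusted p = 0.255). In HIST3H2A the 3 A375 libraries were at 26.4, 32.0 and 30.3 FPKM and the 3 Colo800 libraries at 6.12, 12.3 and 6.27. Colo800 ETV1-sh1 thus stood apart from the other 2 Colo800 libraries. On the lower side HIST1H2BC was at -0.57 (SE 0.333) and HIST2H2BF at -0.51 (SE 0.26). The median of the 21 was -0.04, against 0.0017 over all tested genes.

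With both ETV1 hairpins together against Scrambled, limma called none of the 21. An unadjusted limma p under 0.05 was reached by 2 of them and by 1204 of all 11129 tested genes. Limma called 0% of all genes in this fit, where the gap between the hairpins counts as spread. HIST2H2BE, at a change of 0.90 (SE 0.257, limma adjusted p = 0.356), and HIST1H2BJ, at 0.66 (SE 0.274, limma adjusted p = 0.461), were above Scrambled in all 4 hairpin libraries. The lowest p below 0 belonged to HIST1H2AM at -0.23 and HIST1H2BC at -0.28. Within a line, where there is no test, HIST2H2BE in Colo800 was the 1 tested member with both hairpins at least 2-fold up on the log2(FPKM + 1) scale, and on that scale none was up in A375 or down in either line. On FPKM itself HIST1H3E in Colo800, at 1.70, 3.52 and 5.96, and HIST1H2BH in A375, at 0.415, 0.833 and 0.944, were also at least 2-fold up with both hairpins, and HIST1H1E in Colo800, at 0.864, 0.303 and 0.338, was at least 2-fold down. Among all tested genes 0.952% were up and 1.63% down by the log2(FPKM + 1) measure in A375, and 0.899% up and 0.908% down in Colo800. The difference of the hairpin effect between the lines was called for none of the 21 and for 0% of all genes (limma). An unadjusted limma p under 0.05 was reached by 0 of the 21 and by 66 of all 11129 tested genes.

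Most genes that act with the clustered histones in S phase moved opposite to the 4 clustered genes that rose with ETV1-sh2. Of 25 S-phase genes tested, 19 fell and none rose with ETV1-sh2, with a median change of -1.24. Among all tested genes 9% fell and 7.73% rose. RRM2, a subunit of ribonucleotide reductase, was at 137, 37.0 and 6.14 FPKM in A375 and at 544, 220 and 138 in Colo800. PCNA, the sliding clamp of DNA polymerases, was at 105, 67.2 and 55.4 FPKM in A375 and at 184, 120 and 74.8 in Colo800. Both were lower with ETV1-sh2 than with ETV1-sh1 and highest with Scrambled in each line. UHRF1, which links replication to DNA methylation, fell by 2.49 (SE 0.229, limma adjusted p = 0.00806).

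Of 26 tested genes for histone transcription and 3′ end processing, 9 fell and none rose with ETV1-sh2 (median -0.46). Among all tested genes 9% fell. LSM10, a protein of the U7 particle that directs the cut after the stem-loop, fell by 1.04 (SE 0.178, limma adjusted p = 0.0191). SLBP, the stem-loop binding protein, which is also on the S-phase list, was at 54.5, 44.9 and 43.1 FPKM in A375 and at 63.5, 40.7 and 37.2 in Colo800. Its change of -0.54 was not called (SE 0.179, limma adjusted p = 0.0844). NPAT, the activator of histone transcription at histone locus bodies, was at 4.46 to 6.97 FPKM in all 6 libraries, with a change of -0.09 (limma adjusted p = 0.794). UPF1, which takes part in the decay of histone mRNA, had a change of -0.42 (limma adjusted p = 0.125). Of 25 histone chaperone genes, 8 fell and none rose (median -0.57), beside the same 9% of all tested genes. Those that fell included ASF1B, which carries new H3 and H4, by 1.82 (SE 0.282, limma adjusted p = 0.0155). The helicase subunit MCM2, which also holds H3 and H4, fell by 2.19 (SE 0.186, limma adjusted p = 0.00766). The importin IPO9, a carrier of H2A and H2B, had a change of 0.52 (limma adjusted p = 0.0643).

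The replication-independent histone genes, many of which make polyadenylated mRNA through the cell cycle, gave 1 call among 11 tested. That gene fell with ETV1-sh2 and none rose (median 0.25), where 9% of all tested genes fell. The 1 that fell was H2AFZ, the gene of the H2A.Z variant, at 51.8, 34.6 and 26.2 FPKM in A375 and at 159, 132 and 87.3 in Colo800 (change -0.91, SE 0.163, limma adjusted p = 0.0204). H3F3B, 1 of the genes of the H3.3 variant, was at 117 to 223 FPKM and had a change of 0.40 (limma adjusted p = 0.131). CENPA, the centromeric H3 variant, had a change of -1.01 (SE 0.379, limma adjusted p = 0.115). The macroH2A gene H2AFY2 had a change of 0.61 (limma adjusted p = 0.146).

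**Figure D4:**
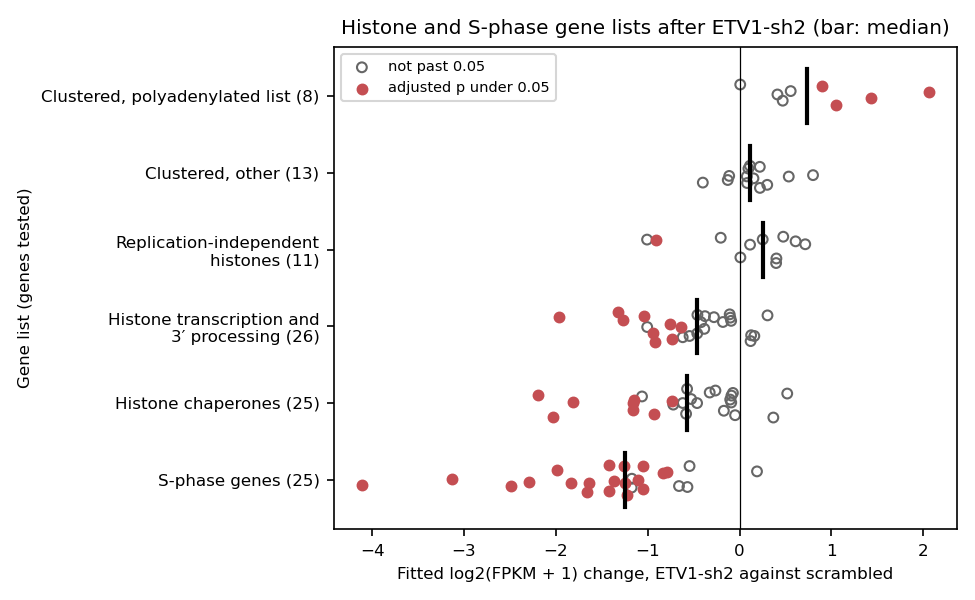
Each point is the fitted log2(FPKM + 1) change of 1 gene with ETV1-sh2 against Scrambled, in rows by gene list, with the number of genes tested in brackets; filled points have an adjusted p under 0.05 and the black bar is the list's median. The clustered genes listed as polyadenylated have a median of 0.73 and the S-phase genes one of -1.24.

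The fibroblast marker list moved with the same libraries. Its 6 genes summed to 10.3, 12.7 and 29.01 FPKM for Scrambled, ETV1-sh1 and ETV1-sh2 of A375 and to 12.3, 14.0 and 27.1 in Colo800. Of its 4 tested genes, COL1A1 and LUM rose with ETV1-sh2, where 7.73% of all tested genes rose. DCN was at 0.423, 0.247 and 4.08 FPKM in A375 and at 0.113, 0.119 and 0.441 in Colo800, highest with ETV1-sh2 in each line. COL1A2 was at 0.00967, 0.0726 and 0.013 FPKM in A375 and at 1.78, 0.178 and 1.32 in Colo800. THY1 was at 0.0321, 0 and 0.00764 FPKM in A375 and at 2.68, 4.82 and 3.07 in Colo800. Neither was highest with ETV1-sh2 in either line. Of 6 tested melanocyte markers, 1 fell and none rose with ETV1-sh2, where 9% of all tested genes fell. The part of other cells in the histone values was not tested.

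Most of the tested clustered histone genes differed between the lines. Of the 21 tested, 14 were lower and 1 was higher in Colo800 than in A375, beside 25.3% lower and 31.8% higher among all tested genes. The filter was a mean over all 6 libraries, so a gene high in only 1 line could enter the test. HIST1H3H, HIST1H2AI, HIST1H1E and HIST2H2BF had Colo800 means of 0.274, 0.290, 0.502 and 0.945 FPKM and passed through A375. HIST1H2BH, at a mean of 0.731 in A375, passed through Colo800. The calls of these genes and the counts thus depend in part on the filter. The median difference, Colo800 minus A375, was -0.81 for the 21 and 0.068 for all tested genes. By type the lower genes were 2 of 2 H1, 4 of 6 H2A, 6 of 8 H2B, 1 of 3 H3 and 1 of 2 H4. They include HIST1H3H, HIST1H1E, HIST1H2AI and HIST2H2BF, which passed through A375, and HIST1H3H is the only lower H3 gene. The count of 15 stayed between 10 and 15 when each library was left out.

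HIST1H1C, a linker histone gene, was at 67.4, 44.7 and 85.4 FPKM in A375 and at 5.23, 6.33 and 9.67 in Colo800. The lines did not overlap, with means of 65.8 ± 20.4 and 7.08 ± 2.31 FPKM (SD over the 3 hairpin libraries of each line, n = 3) and a difference of -3.04 (SE 0.188, limma adjusted p = 0.00015). HIST1H3H, which encodes a canonical H3, was at 7.01, 3.20 and 8.14 FPKM in A375 and at 0.117, 0.218 and 0.486 in Colo800. It was under 1 FPKM in all 3 Colo800 libraries and passed the filter through A375, so its call depends in part on the filter. Its fitted difference was -2.42 (SE 0.255). HIST2H2BE differed by -2.28 (SE 0.187, limma adjusted p = 0.000317), HIST3H2A by -1.79 (SE 0.194, limma adjusted p = 0.000747) and HIST1H2BG by -1.74 (SE 0.197, limma adjusted p = 0.000856). HIST1H2BG, at 29.2, 20.9 and 24.6 FPKM in A375 and 6.01, 8.09 and 6.09 in Colo800, did not overlap between the lines. HIST1H4H, the most abundant H4 gene, was at 18.2, 11.9 and 23.9 FPKM in A375 and at 5.68, 5.83 and 8.14 in Colo800 (difference -1.30, SE 0.178, limma adjusted p = 0.00163).

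The 1 gene higher in Colo800 was HIST1H2BH, an H2B gene, at 0.415, 0.833 and 0.944 FPKM in A375 and at 4.32, 1.83 and 4.27 in Colo800. The lines did not overlap, and the fitted difference was 1.32 (SE 0.279). HIST1H2BH passed the filter through Colo800, so its call depends in part on the filter. HIST1H2BD and HIST1H2AC, the genes that rose most with ETV1-sh2, were lower in Colo800 by smaller amounts, -0.99 (SE 0.177, limma adjusted p = 0.00432) and -0.71 (SE 0.199, limma adjusted p = 0.0236). Their ranges over the 3 hairpins overlapped between the lines. The HIST1H2AC difference was not past the threshold without A375 Scrambled, A375 ETV1-sh1, Colo800 Scrambled or Colo800 ETV1-sh1 (limma adjusted p of 0.0787 to 0.136), nor with all 16132 genes tested (0.063). The 6 genes not called were HIST1H2AD, HIST1H2AM, HIST1H2BC, HIST1H3D, HIST1H3E and HIST1H4E. HIST1H3D, at 4.08 to 5.34 FPKM in all 6 libraries, varied little, and all of its annotated sequence is shared with another gene's transcript. A shared promoter stretch joined 2 pairs with both genes tested. In 1 pair HIST1H2BG and HIST1H2AE were both lower in Colo800, the latter at 2.86, 3.59 and 4.12 FPKM in A375 and 1.92, 1.11 and 1.72 in Colo800. In the other, HIST1H2AC was lower and HIST1H2BC was not called (difference -0.19, limma adjusted p = 0.565).

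**Figure D5:**
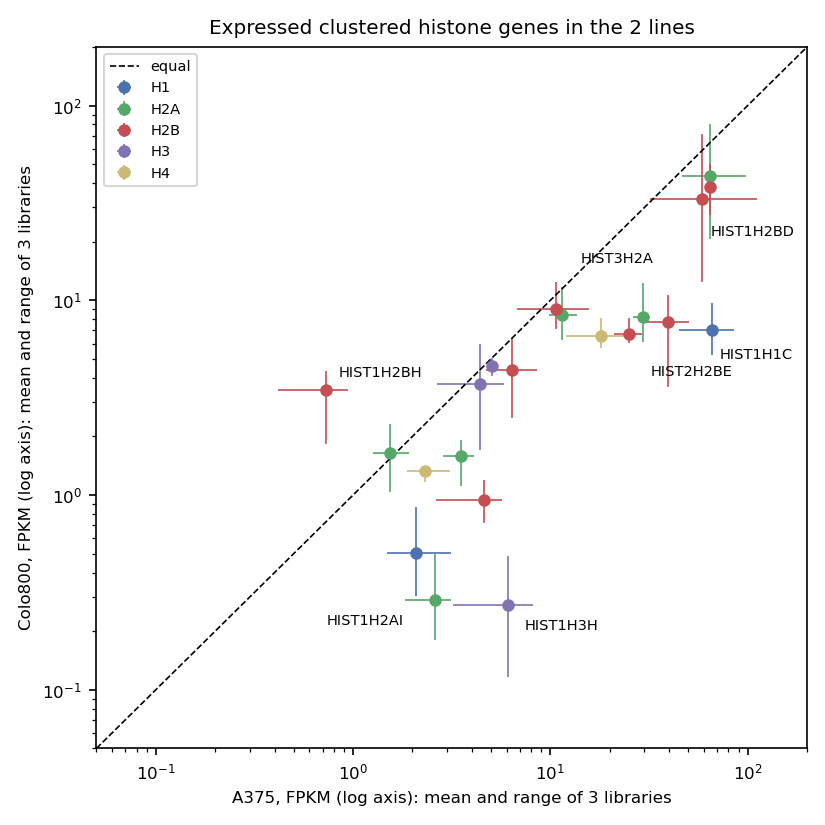
Points give the mean FPKM of the 21 tested genes over the 3 hairpin libraries in A375 (x, log axis) and Colo800 (y, log axis), with bars for the lowest and highest library and colours for histone type. Most points lie under the dashed line of equal level, HIST1H1C at 65.8 and 7.08 FPKM among the farthest, and HIST1H2BH lies above it.

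The S-phase genes had the opposite order between the lines. Of 25 tested, 18 were higher and none was lower in Colo800 (median difference 1.15), beside 31.8% higher and 25.3% lower among all tested genes. RRM2 was higher by 2.93 (SE 0.408, limma adjusted p = 0.00172). SLBP differed by -0.04 (limma adjusted p = 0.818) and NPAT by 0.22 (limma adjusted p = 0.334). H2AFZ was higher in Colo800 by 1.73 (SE 0.133, limma adjusted p = 0.000271) and CENPA by 2.93 (SE 0.31, limma adjusted p = 0.00068), while H2AFY2 was lower (difference -3.37, SE 0.21, limma adjusted p = 0.000151). The leukocyte list differed between the lines through LYZ, lysozyme, at 12.2, 19.8 and 21.0 FPKM in A375 and 0.167, 0.514 and 1.02 in Colo800, while PTPRC, which marks leukocytes, was under 0.2 FPKM in every library.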

How the data were processed

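The deposited values are FPKM, which the authors derived using Cuffnorm and Cufflinks 2.2.1 after alignment by STAR 2.4 (hg19 build), per the submitters' processing notes. No source used here gives the annotation, strandedness, RNA selection or multi-read handling. Each of 6 libraries is 1 line and hairpin. Tests were run in limma 3.58.1 (R 4.3.3; lmFit, trended eBayes) on log2(FPKM + 1) in the 11129 genes whose mean FPKM reached 1, adjusted by Benjamini-Hochberg over all of them, with a threshold of 0.05. This scale understates changes of low genes. Each hairpin, the hairpins against each other and the lines were compared in a fit of line plus hairpin (3 levels; 2 residual degrees of freedom). Both hairpins against Scrambled used the line as a block (3 degrees of freedom), and the difference between lines a mean per line and knockdown state (2 degrees of freedom). Separate cultures are not stated, and the p-values thus reflect only how far these 6 libraries scatter, which may be technical. Line is the pairing of the libraries.

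Members and gene lists were chosen with earlier results of these data known. Named members were the 4 highest per type, up to 6 per direction past the threshold or else the 2 with the smallest p, and in other lists the 3 with the largest statistic plus SLBP, NPAT, H2AFZ, H3F3B and ASF1B. Other genes were named after their values were seen. Members were matched to GENCODE release 29 by symbol (69 of 69, 33 with the same Ensembl identifier). The fit was tested on simulated data. Alternatives were log2(FPKM + 0.1), no filter, no variance trend, median-ratio scaling, no block, and each library left out.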

Additional observations from a re-analysis of the deposited data

Results flagged for a closer look

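In 3 tested genes both ETV1 hairpin libraries moved one way against Scrambled in A375 and the other way in Colo800, or the reverse. The difference of the hairpin effect, Colo800 minus A375, was -0.6153 for HIST1H2AE, 0.5462 for HIST1H2BG and -0.8784 for HIST1H2BH. None passed the test of the difference itself (limma adjusted p = 1.00 for each), and each line has 1 Scrambled library that enters both of its differences. HIST1H2BH was at 0.415, 0.833 and 0.944 FPKM with Scrambled, ETV1-sh1 and ETV1-sh2 in A375 and at 4.32, 1.83 and 4.27 in Colo800.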

How the results depend on the processing

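The 4 genes called with ETV1-sh2 became 0 with no filter on low values and 0 with no replicate block, and ranged from 1 to 3 when each library was left out. The 2 called between the hairpins became 0 with no filter and 0 with no replicate block, and ranged from 0 to 2. Without the filter 16132 genes were tested, and without the block the line difference counts as spread. With log2(FPKM + 0.1) the median change of the 21 genes was 0.48 for ETV1-sh2 against Scrambled and 0.60 for ETV1-sh2 against ETV1-sh1. On that scale 3 genes in place of 1 passed 2-fold with both hairpins in Colo800. HIST2H2BE and HIST1H3E were up and HIST1H1E was down. Leaving out single libraries gave medians of -0.0891 to 0.11 for ETV1-sh1, 0.18 to 0.50 for ETV1-sh2 and 0.32 to 0.54 for ETV1-sh2 against ETV1-sh1. Changes of uncalled genes turned sign when a Scrambled library was left out: HIST1H2AM with both hairpins ranged from -0.54 (without A375 Scrambled) to 0.09 (without Colo800 Scrambled), and HIST1H2BC ranged from -0.88 (without Colo800 Scrambled) to 0.32 (without A375 Scrambled) with both hairpins and from -1.17 to 0.0291 with ETV1-sh1. With ETV1-sh2 and 1 library left out, HIST1H2BC ranged from -0.59 to 0.61 and HIST1H2BG from -0.39 to 0.16. Median-ratio scaling turned the HIST1H2BC change with ETV1-sh2 from 0.0076 to -0.0141. It also turned the median of all genes from 0.068 to -0.03 between the lines and from 0.0224 to -0.0032 in the difference between lines, and no scaling moved the median of all genes by over 0.1. With 1 library per line and hairpin and unknown absolute depth, small changes of low genes were not detectable here.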
